A study of Mus musculus with 18 samples.

Results

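Resident macrophages of the synovial lining are recognised in mice by a small set of transcripts, and 10 of them are described here among the 24421 gene symbols counted. They are *Lyve1*, *Vsig4*, *Cx3cr1*, *Timd4*, *Folr2*, *Trem2*, *Aqp1*, *Gpr34*, *Csf1r* and *Adgre1*, chosen by name as markers of resident lining and LYVE1-expressing macrophages, and all 10 were counted in every group and passed the filter on low counts. Synovial macrophages of WT C57BL/6 mice were sorted by flow cytometry into LYVE1+CX3CR1+ macrophages, which lack MHC class II (MHCII), MHCII+CD11c- macrophages and MHCII+CD11c+ macrophages. Their RNA was sequenced in bulk, from untreated mice and from mice given immune complexes (IC) of ovalbumin and rabbit anti-ovalbumin IgG intravenously 8 h before. Each of the 6 groups had 3 libraries, 18 in all, and each library pooled the joints of several mice, so a library is a pool and not an animal. The sort itself used LYVE1, CX3CR1, MHCII and CD11c protein, so differences in *Lyve1* and *Cx3cr1* transcripts between subsets are a check of the gates rather than an independent result. All 10 were chosen as markers of such cells, with earlier results of these data known. How many were higher in LYVE1+CX3CR1+ macrophages thus describes the chosen list and is not independent support.

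The synovial lining is a thin sheet of macrophages and fibroblasts that faces the joint fluid. Its macrophages are long-lived, are renewed locally, take up debris and joint fluid proteins, and seal the lining with junctions. MHCII+ macrophages lie deeper in the sublining and are more readily replaced from blood monocytes. The 10 transcripts encode proteins with different tasks. LYVE1 is a hyaluronan receptor, FOLR2 a folate receptor, and AQP1 a water channel. VSIG4 binds complement C3 fragments, TIM4, the product of *Timd4*, and TREM2 bind lipids exposed on dying cells, and GPR34 senses lysophosphatidylserine. CX3CR1 is the receptor for fractalkine, and CSF1R, the receptor for CSF1 and IL-34, keeps macrophages alive. ADGRE1, known as F4/80, is a general surface marker of mouse macrophages.

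In RefSeq coordinates of GRCm38, the build the counts were made on, the minus strand holds *Lyve1* at chr7:110850607-110862953, *Folr2* at chr7:101839988-101857190, *Cx3cr1* at chr9:120048683-120068296 and *Vsig4* at chrX:96247201-96293438. The plus strand holds *Timd4* at chr11:46810786-46844333, *Trem2* at chr17:48346401-48352276, *Adgre1* at chr17:57358581-57483529, *Aqp1* at chr6:55336299-55348555 and *Gpr34* at chrX:13622650-13640859. The exons of 3 members overlap exons on the opposite strand, by 78 bases for *Cx3cr1* and *Gm33858*, 474 bases for *Folr2* and *Gm10602*, and 873 bases for *Csf1r* and *Hmgxb3*. Whether strand was used in counting is not given in the sources used here, so reads in those stretches may belong to either gene, and the exons of the other 7 members had no such overlap.

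The RefSeq start regions of 6 members were searched, and those of *Lyve1*, *Gpr34*, *Csf1r* and *Adgre1* were not. The 250 bases upstream of *Vsig4* and *Trem2* are shown because both genes differed between subsets and their patterns over the libraries were close (Pearson's r = 0.973). They are written 5′ to 3′ on the strand of the gene, at chrX:96293439-96293688 (minus strand) and chr17:48346151-48346400 (plus strand), with capitals marking the motif letters searched for.
Vsig4: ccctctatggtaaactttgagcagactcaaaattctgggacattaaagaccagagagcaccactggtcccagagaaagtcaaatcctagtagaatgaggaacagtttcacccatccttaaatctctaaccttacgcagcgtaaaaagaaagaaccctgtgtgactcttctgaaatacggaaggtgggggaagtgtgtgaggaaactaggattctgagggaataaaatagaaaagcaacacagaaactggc
Trem2: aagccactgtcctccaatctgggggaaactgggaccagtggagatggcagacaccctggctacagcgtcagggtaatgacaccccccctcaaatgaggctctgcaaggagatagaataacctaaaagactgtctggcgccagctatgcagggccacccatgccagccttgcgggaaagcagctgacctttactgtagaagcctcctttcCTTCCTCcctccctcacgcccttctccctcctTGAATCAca

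Sets of letters were searched for on both strands, GAGGAAG (the core bound by PU.1, the macrophage lineage factor), TGCTGA (a half-site of MAF factors) and TGANTCA. The last covers the AP-1 site, TGACTCA or TGAGTCA, but also allows A or T in the middle. *Trem2* had GAGGAAG on the minus strand 41 bases before its start and TGANTCA 9 bases before it. The latter match read TGAATCA, which is not the AP-1 site itself. The windows of *Vsig4* and *Cx3cr1* had none of the 3. GAGGAAG also stood 30 bases before the start of *Aqp1*. TGCTGA stood 150 and 44 bases before a start of *Timd4* that lies just inside the span given above, and 19 and 220 bases before 2 separate starts of *Folr2*. TGANTCA, read as TGACTCA, stood 74 bases before the first of these starts. No matches overlapped. Among 32851 RefSeq windows of the same length, 10.6% held GAGGAAG, 16.1% TGCTGA and 6.75% TGANTCA, so each is common, and a match or its absence says only which letters are present.

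The depth of the libraries lay between 245903 and 2172358 counts, and the 2 shallowest were MHCII+CD11c- libraries with IC, at 245903 (replicate 2) and 381217 (replicate 1) against 973951 (replicate 3). Levels are TMM-scaled CPM, that is, counts per library size, with the size corrected for composition and scaled to a common total. The 12 general macrophage genes checked were counted in all 6 groups. Replicate 2 of the MHCII+CD11c- macrophages with IC stood apart from its group. Its summed level of those 12 genes was 8912 CPM against 14159 and 14399.7 CPM in the others, and that of 10 class II and interstitial macrophage genes was 8573 against 15270.2 and 14755 CPM. Values that it moved across the threshold or by over 1.5 times are also given without it. Class II and interstitial genes summed to 172 to 322 CPM in untreated LYVE1+CX3CR1+ libraries, 22468 to 25121 CPM in MHCII+CD11c- and 33416 to 36623 CPM in MHCII+CD11c+ libraries, and *Itgax*, which encodes CD11c, averaged 1.71, 6.02 and 269 CPM in the same order. These levels fit the labels of the 3 subsets.

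In untreated mice all 10 transcripts had their highest level in LYVE1+CX3CR1+ macrophages, an intermediate one in MHCII+CD11c- and the lowest in MHCII+CD11c+ macrophages. The size of the step differed widely. *Vsig4* was 31.0-fold higher in LYVE1+CX3CR1+ than in MHCII+CD11c+ macrophages and *Cx3cr1* 11.6-fold, whereas *Folr2*, *Csf1r* and *Adgre1* differed by 2.31-fold, 2.01-fold and 1.44-fold. None of the 10 was absent from a subset: the lowest group mean of any member was 32.1 CPM, for *Timd4* in untreated MHCII+CD11c+ macrophages. In bulk samples, fewer cells that express a gene and less RNA per cell cannot be told apart.

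**Figure D1:**
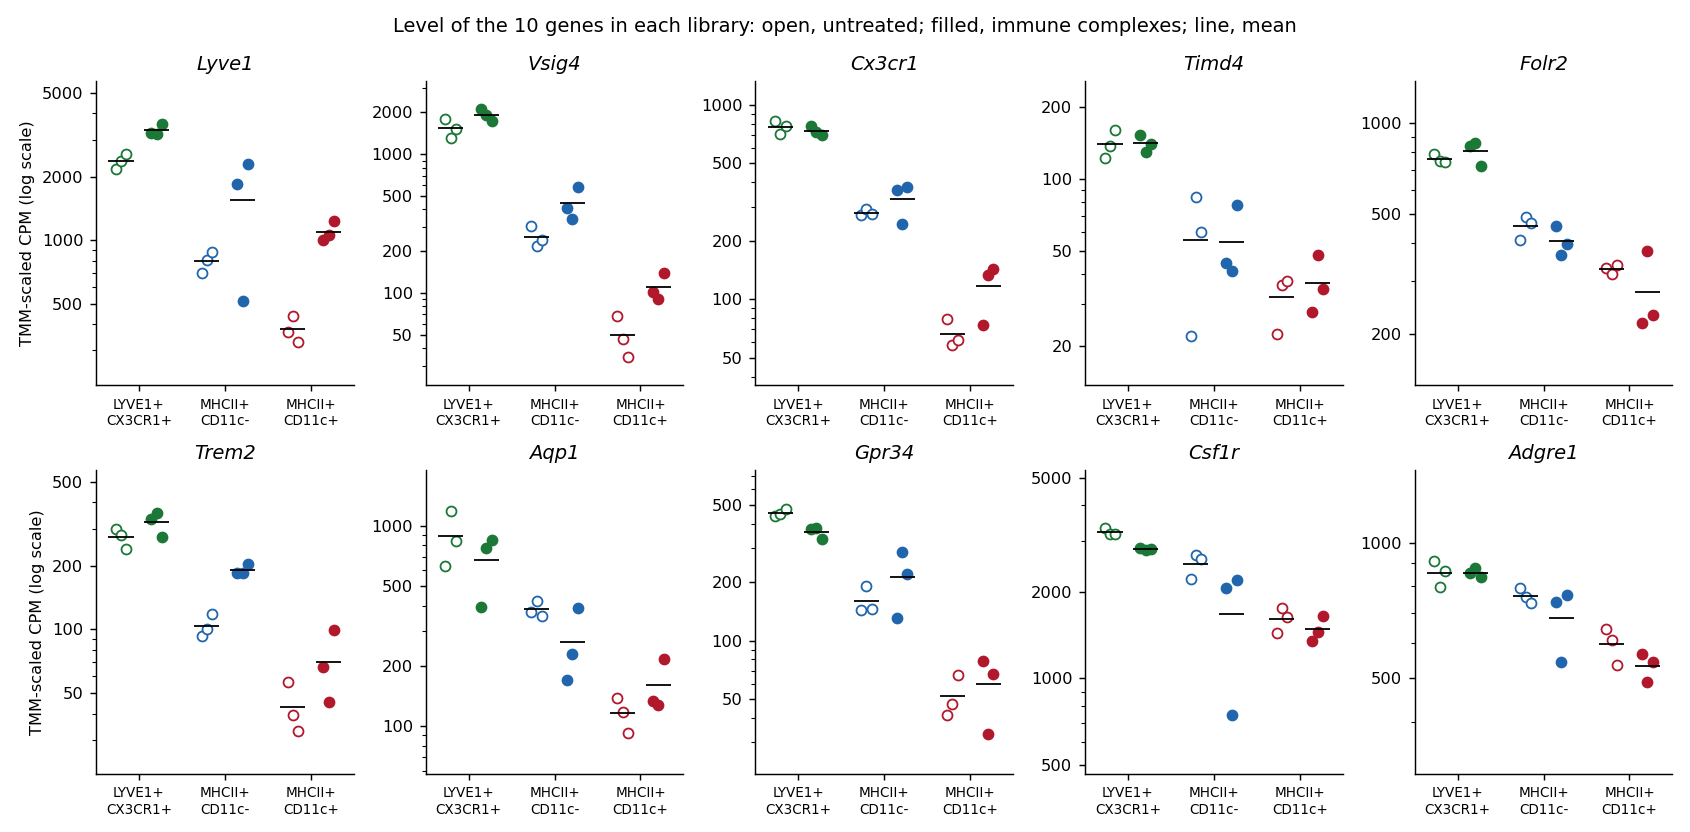
Level of each of the 10 transcripts in every library, in TMM-scaled CPM on a log axis, by sorted subset. Open points are untreated mice, filled points are mice 8 h after IC, each point is 1 library and lines mark the mean of 3. In untreated mice the levels step down from LYVE1+CX3CR1+ to MHCII+CD11c- to MHCII+CD11c+ macrophages for each gene, with a mean of 1543, 254 and 49.7 CPM for *Vsig4* and of 858, 761 and 595 CPM for *Adgre1*.

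Among the genes of uptake receptors, *Vsig4* stood at 1799.95, 1314 and 1516 CPM in the untreated LYVE1+CX3CR1+ libraries (replicates 1 to 3, in order here and below), at 302, 219 and 240.1 in MHCII+CD11c- and at 67.8, 46.7 and 34.7 in MHCII+CD11c+ libraries. The 3 groups did not overlap. The share of all genes whose untreated groups lay apart was not counted, so groups apart are given here as description. *Lyve1* stood at 2171, 2382 and 2563 CPM, then at 702, 806 and 882, and at 365, 439 and 329. Its groups were also apart, with a smaller ratio between the first and the last. *Trem2* stood at 297, 281 and 241 CPM, at 93.0, 100.2 and 119, and at 56.2, 39.4 and 33.3. *Timd4*, the least abundant member, stood at 122, 137 and 160.5 CPM, at 22.1, 84.3 and 60.3, and at 22.6, 36.2 and 37.6, so its MHCII+ subsets overlapped. *Folr2* stood at 793, 752 and 743 CPM, at 412, 488 and 467, and at 332, 317 and 340.5, a shallow gradient with narrow groups.

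Among the sensing receptors and the water channel, *Cx3cr1* stood at 830, 708 and 779 CPM in LYVE1+CX3CR1+, at 269.7, 291 and 275 in MHCII+CD11c- and at 78.8, 57.9 and 61.7 in MHCII+CD11c+ libraries. *Gpr34* stood at 440.0, 449 and 474 CPM, at 144, 192 and 145, and at 41.5, 47.3 and 66.5. Neither gene had overlapping groups. *Aqp1*, which varied widely between pools, stood at 633, 1191 and 837 CPM, then at 372, 423 and 357, and at 139, 118 and 92.6. *Csf1r*, the growth factor receptor gene on the plus strand at chr18:61105572-61131139, stood at 3326, 3189.5 and 3183 CPM, at 2224, 2678 and 2610.1, and at 1434, 1755 and 1635. *Adgre1* stood at 909.7, 798 and 865 CPM, at 792, 757 and 735, and at 643, 607 and 535. Both fell by smaller steps, although the 3 groups of each gene lay apart.

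Per kilobase of exon, which allows levels to be set side by side between genes, *Vsig4* led in untreated LYVE1+CX3CR1+ macrophages at 1078 ± 171 CPM per kb (SD, n = 3). *Lyve1* followed at 820 ± 68.0 CPM per kb, *Csf1r* at 649 ± 16.2 and *Folr2* at 558 ± 19.6, with no overlap between neighbours. *Aqp1* (338 ± 107), *Adgre1* (265 ± 17.4), *Trem2* (239 ± 25.4) and *Gpr34* (217 ± 8.38) came next with overlapping libraries, and *Cx3cr1* (172 ± 13.5) and *Timd4* (64.4 ± 8.92) were last. The libraries of *Vsig4*, at 918 to 1257 CPM per kb, lay above those of *Lyve1*, at 750 to 886. The order was another in the MHCII+ subsets. *Csf1r* led in MHCII+CD11c- (503 CPM per kb) and MHCII+CD11c+ macrophages (323 CPM per kb), followed in both by *Folr2* (333 and 241 CPM per kb). *Vsig4* stood below *Lyve1* and *Adgre1* in both, at 177 CPM per kb in the MHCII+CD11c- subset and 34.7 CPM per kb in the MHCII+CD11c+ subset.

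For each of the 10550 genes that passed the filter, edgeR's quasi-likelihood test was run, and a gene was called at a Benjamini-Hochberg adjusted p under 0.05. Comparing untreated LYVE1+CX3CR1+ with MHCII+CD11c- macrophages, 8 of 10 members were higher and 0 lower, while 4.32% of all genes tested were higher. The log2 fold change was 2.60 for *Vsig4* (SE 0.22, adjusted p = 4.91e-09), 1.57 for *Lyve1* (SE 0.28, adjusted p = 0.000361), 1.50 for *Gpr34* (SE 0.24, adjusted p = 0.000107) and 1.47 for *Cx3cr1* (SE 0.19, adjusted p = 6.1e-06). It was 1.39 for *Trem2* (adjusted p = 0.000111), 1.33 for *Timd4* (adjusted p = 0.00424), 1.21 for *Aqp1* (adjusted p = 0.00439) and 0.74 for *Folr2* (adjusted p = 0.00405). *Csf1r*, at 0.37 (95% interval -0.07 to 0.81, adjusted p = 0.352), and *Adgre1*, at 0.17 (95% interval -0.11 to 0.45, adjusted p = 0.533), did not pass. The median over the members was 1.36 and that over all genes -0.02.

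Against untreated MHCII+CD11c+ macrophages all 10 members were higher in LYVE1+CX3CR1+ macrophages, with 9.48% of all genes. Both comparisons share the LYVE1+CX3CR1+ libraries. The log2 fold change was 4.95 for *Vsig4* (SE 0.25, adjusted p = 1.01e-13), 3.54 for *Cx3cr1* (SE 0.21, adjusted p = 1.45e-12), 3.12 for *Gpr34* (SE 0.25, adjusted p = 8.81e-10) and 2.93 for *Aqp1* (SE 0.30, adjusted p = 3.63e-08). *Trem2* followed at 2.66 (adjusted p = 2.58e-09), *Lyve1* at 2.65 (adjusted p = 1.28e-07) and *Timd4* at 2.12 (adjusted p = 7.67e-06). The smallest were *Folr2* at 1.21 (adjusted p = 5.54e-06), *Csf1r* at 1.01 (adjusted p = 0.00147) and *Adgre1* at 0.53 (adjusted p = 0.00784). *Adgre1* did not pass without replicate 3 of the untreated MHCII+CD11c+ macrophages (adjusted p = 0.0608). The median was 2.66 over the members and -0.02 over all genes.

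The MHCII+ subsets differed from each other as well. In untreated MHCII+CD11c+ against MHCII+CD11c- macrophages 6 of 10 members were lower, with 1.6% of all genes. They were *Vsig4* (log2 fold change -2.35, SE 0.24, adjusted p = 7.63e-07), *Cx3cr1* (-2.07, SE 0.20, adjusted p = 6.6e-07), *Aqp1* (-1.72, adjusted p = 0.000792), *Gpr34* (-1.62, adjusted p = 0.000403), *Trem2* (-1.27, adjusted p = 0.00196) and *Lyve1* (-1.08, adjusted p = 0.0285). The call of *Lyve1* rested on most of the libraries, since it passed in 1 of the 6 fits that each left out 1 of them (adjusted p from 0.0337 to 0.132). *Timd4* (-0.79, adjusted p = 0.213), *Csf1r* (-0.64, adjusted p = 0.129), *Folr2* (-0.47, adjusted p = 0.148) and *Adgre1* (-0.35, adjusted p = 0.202) did not pass, each with an interval below 0. *Timd4* passed (adjusted p = 0.0193) without replicate 1 of the untreated MHCII+CD11c- macrophages, the library in which it was lowest.

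**Figure D2:**
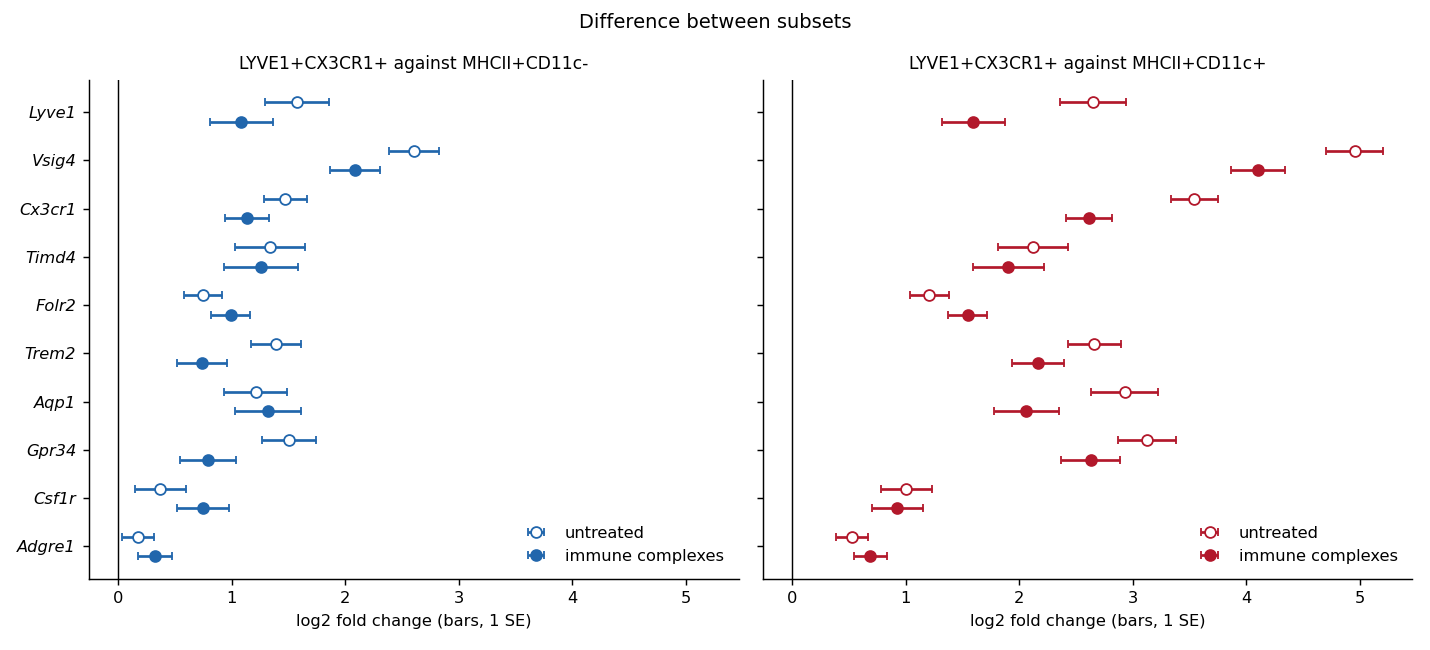
Log2 fold change of each transcript in LYVE1+CX3CR1+ against MHCII+CD11c- and against MHCII+CD11c+ macrophages, with bars of 1 SE. Open points are untreated and filled points are IC-treated mice, and values above 0 are higher in LYVE1+CX3CR1+ macrophages. *Vsig4* lies farthest from 0 in each comparison, between 2.09 and 4.95, and *Adgre1* nearest, between 0.17 and 0.69.

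With IC the order of the subsets was the same. In LYVE1+CX3CR1+ macrophages 9 of 10 members passed as higher against MHCII+CD11c- macrophages, with 3.32% of all genes. Against MHCII+CD11c+ macrophages 10 of 10 passed, with 8.21% of all genes. *Adgre1* was higher than in MHCII+CD11c- macrophages without passing (log2 fold change 0.32, adjusted p = 0.174). *Vsig4* again had the greatest difference among the members, at 2.09 against MHCII+CD11c- macrophages (SE 0.22, adjusted p = 2.49e-07) and 4.10 against MHCII+CD11c+ macrophages (SE 0.24, adjusted p = 1.91e-12) on the log2 scale, the second a 17.2-fold difference. *Lyve1* differed by 1.08 (adjusted p = 0.0121) and 1.60 (adjusted p = 0.000122) and *Cx3cr1* by 1.13 (adjusted p = 0.000233) and 2.61. In the comparison with MHCII+CD11c- macrophages *Lyve1* stood at 0.70 and *Csf1r* at 0.42 without replicate 2 of that group, both still past the threshold. Without both of its shallow libraries 1 library remained, which was assumed to vary like the other groups, and 3 of the 9 calls passed, those of *Vsig4* (1.75), *Cx3cr1* (0.99) and *Folr2* (1.05). *Trem2*, *Gpr34* and *Csf1r* (adjusted p = 0.0345, 0.0401 and 0.0364) passed in 2, 1 and 3 of the 6 fits that each left out 1 library. *Timd4* (adjusted p = 0.0128) did not pass without replicate 1 of the MHCII+CD11c- macrophages with IC (adjusted p = 0.0577).

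Between the MHCII+ subsets with IC, 4 members were lower in MHCII+CD11c+ macrophages, with 1.07% of all genes. They were *Vsig4* (log2 fold change -2.02, adjusted p = 1.29e-05), *Gpr34* (-1.84, adjusted p = 0.000182), *Cx3cr1* (-1.48, adjusted p = 0.000122) and *Trem2* (-1.43, adjusted p = 0.000691). *Lyve1* stood at -0.51 (adjusted p = 0.384). Replicate 2 of the MHCII+CD11c- macrophages with IC decided this value: without it the difference of *Lyve1* was -0.90 (adjusted p = 0.000261), and *Csf1r* (-0.51, adjusted p = 0.014) and *Adgre1* (-0.49, adjusted p = 0.0298) passed too, so that 7 members were lower.

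The IC comparison asks which of these transcripts moved within each subset 8 h after injection. In MHCII+CD11c+ macrophages 3 members were higher with IC and 0 lower, with 0.483% of all genes higher and 0.19% lower. *Lyve1* rose from 365, 439 and 329 to 1001, 1054 and 1232 CPM. Every library with IC lay above every untreated one, and the log2 fold change was 1.54 (SE 0.28, adjusted p = 0.00881). *Vsig4* rose from 67.8, 46.7 and 34.7 to 102, 91.2 and 140.1 CPM, again without overlap, by 1.17 (SE 0.24, adjusted p = 0.0145). *Cx3cr1* rose from 78.8, 57.9 and 61.7 to 74.0, 134 and 144 CPM, by 0.85 (SE 0.20, adjusted p = 0.0471), with replicate 1 with IC inside the untreated range. Groups apart with the IC libraries higher were found for 8.51% of all genes.

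Each of these 3 calls was lost when certain single libraries were left out. That of *Lyve1* was lost without replicate 3 of the untreated group (adjusted p = 0.0638) and without replicate 3 of the IC group (adjusted p = 0.065), while the log2 fold change stayed between 1.42 and 1.66. *Vsig4* did not pass without untreated replicate 2 (adjusted p = 0.102) or 3 (adjusted p = 0.121) or IC replicate 3 (adjusted p = 0.183), at 0.93 to 1.47 over the 6 fits. *Cx3cr1* passed only without untreated replicate 1 or IC replicate 1, at 0.67 to 1.07 over the fits, and did not pass when only these 6 libraries were fitted (adjusted p = 0.072). The other 7 members did not pass in MHCII+CD11c+ macrophages. *Trem2* went from 56.2, 39.4 and 33.3 to 66.3, 45.6 and 99.3 CPM (log2 fold change 0.73, 95% interval 0.26 to 1.20, adjusted p = 0.208), *Aqp1* from 139, 118 and 92.6 to 134, 127 and 217 CPM (0.47, adjusted p = 0.673). The values of *Timd4* (0.23), *Gpr34* (0.17), *Csf1r* (-0.11), *Adgre1* (-0.16) and *Folr2* (-0.25) lay nearer to 0, and all had intervals that included it.

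In MHCII+CD11c- macrophages no member passed, 4 had an unadjusted p under 0.05, with 14.6% of all genes, and DESeq2's Wald test called 2, *Vsig4* and *Trem2*. Of all genes 0.55% were higher and 0.512% lower. *Lyve1* went from 702, 806 and 882 to 1841, 516 and 2290.3 CPM. Replicates 1 and 3 lay far above the untreated range and replicate 2 below it, which gave 0.97 on the log2 scale (SE 0.28, adjusted p = 0.0831). Without replicate 2 it was 1.37 (adjusted p = 4.8e-06). *Vsig4* went from 302, 219 and 240.1 to 413, 339 and 585 CPM (0.84, SE 0.22, adjusted p = 0.0614) and *Trem2* from 93.0, 100.2 and 119 to 186, 184 and 204 CPM (0.89, SE 0.23, adjusted p = 0.0619). Both groups lay apart, as they did with IC higher for 5.68% of all genes. Without replicate 2 *Vsig4* stood at 0.99 (adjusted p = 0.0137) and *Trem2* at 0.91 (adjusted p = 0.057).

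*Csf1r* lay on the other side of 0 in MHCII+CD11c- macrophages, from 2224, 2678 and 2610.1 to 2068, 746 and 2202 CPM (log2 fold change -0.57, 95% interval -1.02 to -0.13, adjusted p = 0.221), and stood at -0.23 (adjusted p = 0.364) without replicate 2. Its level in that library was the lowest of the 18. *Gpr34* went from 144, 192 and 145 to 131, 286 and 219 CPM (0.39, adjusted p = 0.499) and *Cx3cr1* from 269.7, 291 and 275 to 366, 245 and 378 CPM (0.26, adjusted p = 0.573). *Aqp1* went from 372, 423 and 357 to 170.0, 229.7 and 389 CPM (-0.50, adjusted p = 0.444). These groups overlapped. *Timd4* (0.09), *Adgre1* (-0.15) and *Folr2* (-0.16) lay closest to 0. Without replicate 2 *Gpr34* stood at 0.17, *Cx3cr1* at 0.41, *Timd4* at 0.22, *Adgre1* at -0.02 and *Folr2* at -0.11, and none passed.

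In LYVE1+CX3CR1+ macrophages, where the members are most abundant, no member passed, none had an unadjusted p under 0.05, with 8.71% of all genes, and DESeq2 called 0. Of all genes 0.246% were higher and 0.218% lower. *Lyve1* stood at 3219, 3172 and 3555 CPM with IC against 2171, 2382 and 2563 CPM untreated, with no overlap (log2 fold change 0.48, 95% interval -0.05 to 1.02, adjusted p = 0.673). It passed in a fit to only these 6 libraries (adjusted p = 0.00666). It was the only member whose libraries with IC all lay above the untreated ones, against 9.6% of all genes. *Vsig4*, at 2107, 1929 and 1744 CPM with IC, stood at 0.32 (adjusted p = 0.745). *Gpr34* at 377, 378 and 332 CPM (-0.33) and *Csf1r* at 2845, 2794 and 2826 CPM (-0.20) lay below their untreated libraries without passing, as 9.46% of all genes did in that direction. *Trem2* (0.23), *Folr2* (0.08), *Timd4* (0.01), *Adgre1* (0.00), *Cx3cr1* (-0.07) and *Aqp1* (-0.39) made up the rest.

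**Figure D3:**
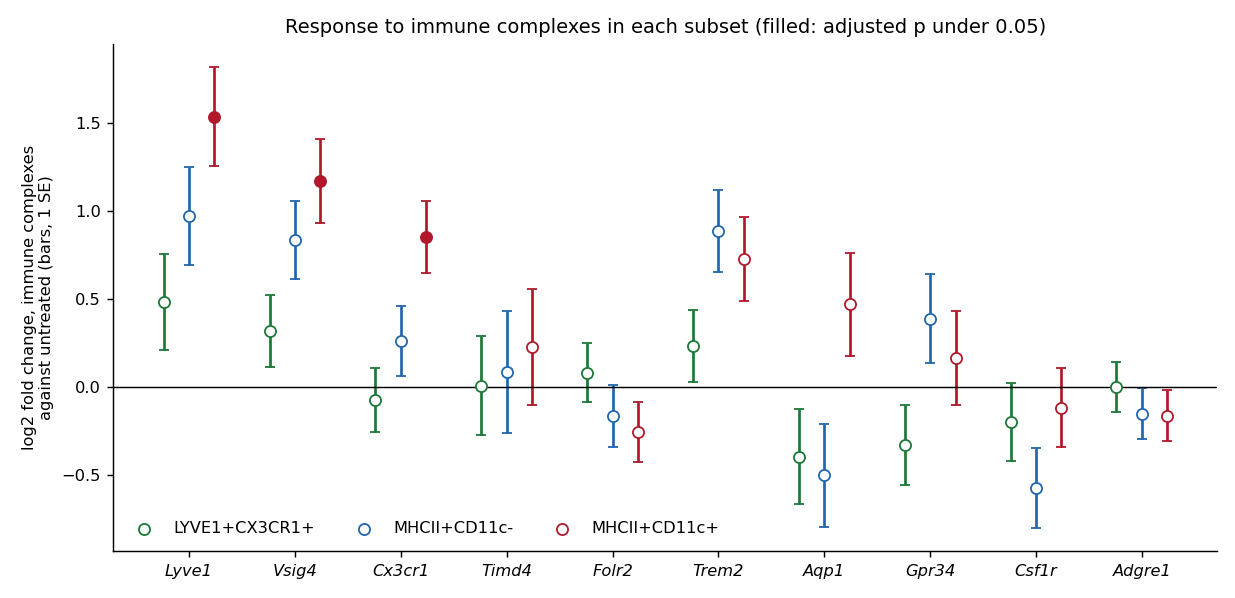
Log2 fold change with IC against untreated for each transcript in the 3 subsets, with bars of 1 SE. Filled points passed an adjusted p of 0.05 and open points did not. *Lyve1* (1.54), *Vsig4* (1.17) and *Cx3cr1* (0.85) in MHCII+CD11c+ macrophages are the filled points, and no member passed in the other subsets.

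A call in 1 subset and not in another does not show that the subsets responded differently, so the difference between responses was fitted itself. It passed for 0 of 10 members in each of the 3 pairs of subsets. Of all genes 0% passed between MHCII+CD11c- and LYVE1+CX3CR1+ macrophages, 0.00948% between MHCII+CD11c+ and LYVE1+CX3CR1+ macrophages, and 0.00948% between the MHCII+ subsets. At an unadjusted p under 0.05 there were 2 members in the first pair (*Trem2* and *Gpr34*), 4 in the second and 2 in the third (*Cx3cr1* and *Aqp1*). Of all genes 6.52%, 4.49% and 6.09% reached that level. The 4 of the second pair were *Lyve1*, whose response exceeded that of LYVE1+CX3CR1+ macrophages by 1.06 (95% interval 0.30 to 1.82), *Cx3cr1* (0.93), *Aqp1* (0.86) and *Vsig4* (0.85). DESeq2 called 0, 1 (*Cx3cr1*, adjusted p = 0.038) and 0 members. *Lyve1* passed in the second pair with no filter on low counts (adjusted p = 0.00806) or with only the 4 groups concerned (adjusted p = 0.0188).

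The rises can also be set against the level in LYVE1+CX3CR1+ macrophages of the same treatment. In MHCII+CD11c+ macrophages, *Lyve1* stood at 15.9% of that level untreated and at 33.0% with IC, *Vsig4* at 3.22% and 5.76%, and *Cx3cr1* at 8.56% and 16.0%. *Trem2* went from 15.7% to 21.9%, *Aqp1* from 13.1% to 23.7%, *Gpr34* from 11.4% to 16.5% and *Timd4* from 23.0% to 26.1%. The shares of *Folr2* (43.2% to 34.1%) and *Adgre1* (69.4% to 62.0%) were lower with IC, and that of *Csf1r* went from 49.8% to 52.6%. The members thus did not move by a like share. The LYVE1+CX3CR1+ mean itself was lower with IC for *Aqp1* (887 to 675 CPM), *Gpr34* (454 to 362) and *Csf1r* (3233 to 2822). It was higher for *Lyve1* (2372 to 3315 CPM) and *Vsig4* (1543 to 1927). The mean of *Csf1r* in MHCII+CD11c+ macrophages went from 1608 to 1484 CPM, although its share was higher.

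The change in level itself was unequal as well. Expressed as a percent of the level in LYVE1+CX3CR1+ macrophages with IC, the change in MHCII+CD11c+ macrophages was 21.7% for *Lyve1* (18.8% to 25.8% over the libraries), 8.55% for *Trem2*, 6.95% for *Cx3cr1* (1.08% to 10.6%), 6.39% for *Aqp1*, 3.33% for *Timd4*, 3.18% for *Vsig4* (2.15% to 4.69%) and 2.20% for *Gpr34*. It was -4.40% for *Csf1r*, -6.73% for *Folr2* and -7.30% for *Adgre1*. These ranges hold only the spread of the MHCII+ libraries with IC, since the untreated and LYVE1+CX3CR1+ levels entered as fixed means. The ranges of *Lyve1* and *Vsig4* in MHCII+CD11c+ macrophages did not overlap, whereas those of *Vsig4* and *Cx3cr1* did. The part of carry-over of LYVE1+CX3CR1+ cells or RNA in these changes was not tested. In MHCII+CD11c- macrophages the change was 27.3% for *Trem2* (25.1% to 31.3%), 22.7% for *Lyve1* (-8.47% to 45.1%), 14.3% for *Gpr34* (-8.18% to 34.7%), 9.96% for *Vsig4* and 6.94% for *Cx3cr1*. It was -0.65% for *Timd4*, -6.08% for *Folr2*, -9.22% for *Adgre1*, -17.9% for *Aqp1* and -29.5% for *Csf1r* (-62.3% to -10.7%). Without replicate 2 it was 38.3% for *Lyve1*, 28.4% for *Trem2*, 12.7% for both *Vsig4* and *Cx3cr1*, 4.04% for *Gpr34*, 4.05% for *Timd4*, -1.08% for *Adgre1*, -3.54% for *Folr2*, -15.5% for *Aqp1* and -13.1% for *Csf1r*. Over the 10 members the median share of the LYVE1+CX3CR1+ level went from 38.9% to 48.5% in MHCII+CD11c- and from 15.8% to 24.9% in MHCII+CD11c+ macrophages, and the share was higher with IC for 5 and 8 members and lower for 5 and 2.

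**Figure D4:**
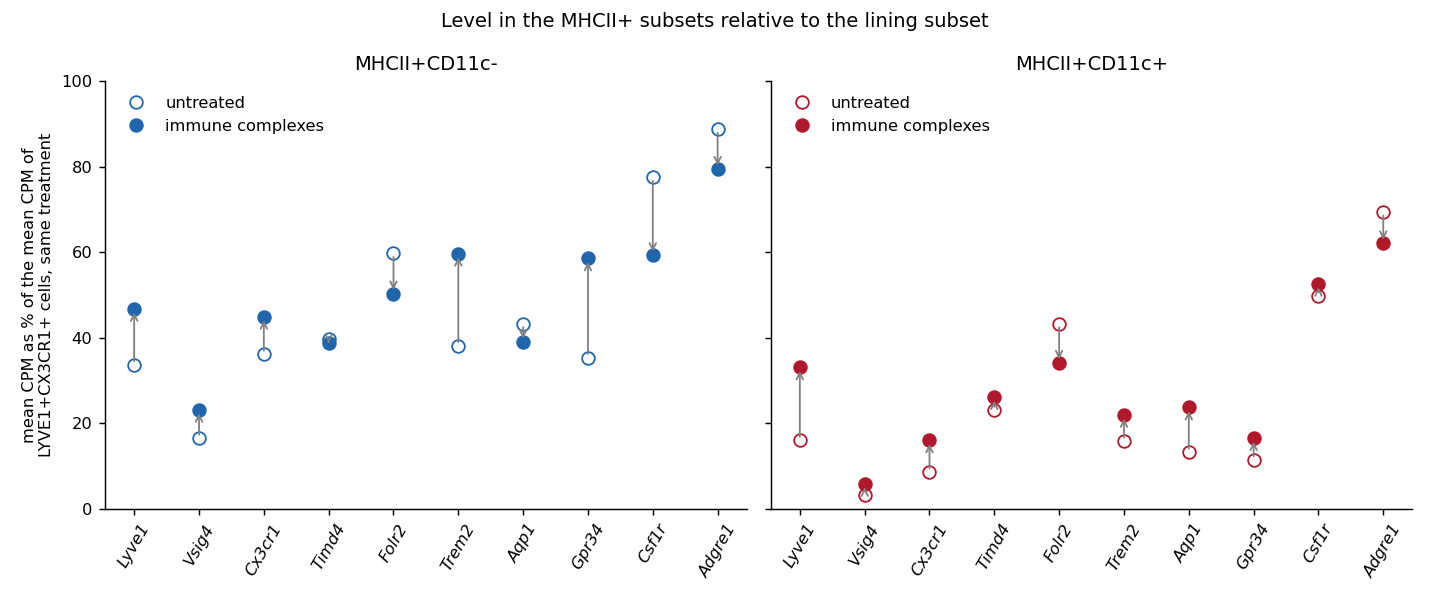
Mean level of each transcript in the MHCII+ subsets as a percent of its mean level in LYVE1+CX3CR1+ macrophages of the same treatment, with arrows from untreated to IC-treated mice. In MHCII+CD11c+ macrophages *Lyve1* goes from 15.9% to 33.0% and *Vsig4* from 3.22% to 5.76%, whereas *Folr2* goes from 43.2% to 34.1%.

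Ratios of counts within a library, which do not depend on its scaling, also differed between the subsets. The MHCII+CD11c+ libraries held 5.39, 9.41 and 9.47 *Lyve1* counts for each *Vsig4* count untreated and 9.83, 11.6 and 8.79 with IC, whereas LYVE1+CX3CR1+ libraries held 1.21, 1.81 and 1.69 untreated and 1.53, 1.64 and 2.04 with IC. The ratio in MHCII+CD11c+ macrophages thus lay above that of the LYVE1+CX3CR1+ libraries in every library of both treatments. MHCII+CD11c- libraries held 2.32, 3.68 and 3.67 untreated and 4.46, 1.52 and 3.92 with IC. Replicate 2 of these with IC lay inside the LYVE1+CX3CR1+ range. For each *Vsig4* count there were 4.90, 6.79 and 9.81 *Folr2* counts in untreated MHCII+CD11c+ libraries and 2.14, 4.13 and 1.66 with IC, against 0.399 to 0.572 in all LYVE1+CX3CR1+ libraries. That ratio was lower in every library with IC.

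Summed neutrophil and monocyte markers lay higher with IC in the MHCII+ subsets, but the neutrophil sums of MHCII+CD11c- libraries overlapped. The summed level of 9 neutrophil genes went from 20.4 to 592 CPM in untreated MHCII+CD11c+ libraries to 1047 to 2356 CPM with IC (3 of 9 genes tested were higher), and that of 9 monocyte genes from 172 to 277 to 387 to 582 CPM (3 of 9 higher). In MHCII+CD11c- macrophages the neutrophil genes went from 775 to 1869.6 to 1525 to 4255 CPM (0 of 9) and the monocyte genes from 128 to 408 to 557 to 839.7 CPM (1 of 9 higher). In LYVE1+CX3CR1+ libraries the neutrophil genes summed to 13.2 to 17.2 CPM untreated and 19.2 to 170.3 with IC, and the monocyte genes to 57.3 to 68.4 and 47.9 to 115 CPM. Their part in the rises of *Lyve1*, *Vsig4* and *Cx3cr1* was not tested. *Lyve1* is also a gene of lymphatic endothelium, and 5 other lymphatic markers summed to at most 51.3 CPM in any library. Their part in the values of *Lyve1* was not tested. *Aqp1* is also an endothelial and erythroid gene. Endothelial markers summed to at most 234.5 CPM, and erythroid markers, at 24.4 to 412 CPM in MHCII+CD11c+ libraries with IC, ranged up to 2860.2 CPM in an untreated MHCII+CD11c- library.

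Class II and interstitial genes were examined with IC as well. In MHCII+CD11c- macrophages 5 of 10 class II and interstitial genes were lower with IC, among them *H2-Ab1* (log2 fold change -0.68), *H2-Aa* (-0.84) and *H2-DMa* (-1.08), and *Itgax* was higher (2.75, from a mean of 6.02 to 45.2 CPM). Without replicate 2 there were 6 lower and 1 higher. With all libraries 0.512% of all genes were lower and 0.55% higher in that comparison. The 10 genes summed to 8573 to 15270.2 CPM with IC. In MHCII+CD11c+ macrophages they summed to 25225 to 30974 CPM, and 0 of the 10 genes passed. Of the 12 general macrophage genes, *Fcgr1*, which encodes an activating receptor for IgG, was higher with IC in LYVE1+CX3CR1+ (log2 fold change 0.99, adjusted p = 0.0213), MHCII+CD11c- (1.18, adjusted p = 0.00685) and MHCII+CD11c+ macrophages (1.25, adjusted p = 0.00336). *Mpeg1*, which encodes a pore-forming protein, was lower in MHCII+CD11c+ macrophages (-0.66, adjusted p = 0.0471), and the other 10 did not pass in any subset. Without replicate 2 of the MHCII+CD11c- macrophages *Itgam*, which encodes the integrin CD11b, was also higher in that subset (0.82, adjusted p = 0.00112). None of 10 genes induced by tissue dissociation passed in any subset with IC.

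Genes of ligands and adaptors that work with the members were counted too. Of 11 such genes 9 passed the filter, and 0 were higher and 3 lower in untreated LYVE1+CX3CR1+ than in MHCII+CD11c- macrophages, and 1 higher and 3 lower than in MHCII+CD11c+ macrophages. Over all genes tested 4.32% were higher and 7.12% lower in the first comparison, and 9.48% and 12.4% in the second. *Apoe*, which encodes a lipid carrier bound by TREM2, was lower than in MHCII+CD11c- macrophages (log2 fold change -1.15, adjusted p = 0.0169). *C3*, the complement component whose fragments VSIG4 binds, averaged 2.66 CPM in LYVE1+CX3CR1+ against 45.2 and 53.7 CPM in the MHCII+ subsets (-3.96 and -4.22, adjusted p = 0.00107 and 0.000105). The kinase gene *Syk* was lower by 0.54 and 0.68 on the log2 scale (adjusted p = 0.0361 and 0.0037). *Inpp5d*, encoding the phosphatase SHIP1, was 0.78 higher than in MHCII+CD11c+ macrophages (adjusted p = 0.00202) and *Plcg2*, a phospholipase gene downstream of TREM2, was lower (-0.50, adjusted p = 0.0391). *Tyrobp*, which encodes the adaptor DAP12 of TREM2, averaged 247 to 284 CPM in all groups and *Spi1*, encoding PU.1, 218 to 291 CPM, and neither passed in any comparison. Of the ligands of CSF1R, *Csf1* averaged 6.28 to 12.4 CPM and *Il34* had 0 counts in 5 of the 6 groups. None of the 9 passed with IC in any subset. Without replicate 2 of the MHCII+CD11c- macrophages *C3* was higher there (2.47, adjusted p = 0.00277).

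Of 26 other genes written down as part of the resident tissue macrophage programme, 6 were higher and 4 lower in untreated LYVE1+CX3CR1+ than in MHCII+CD11c- macrophages (median log2 fold change 0.29), and 15 higher and 5 lower than in MHCII+CD11c+ macrophages (median 0.73). The shares over all genes were 4.32% higher and 7.12% lower in the first comparison, and 9.48% and 12.4% in the second. *Stab1*, a scavenger receptor gene, was higher by 1.01 (adjusted p = 0.00828) and 1.99 (adjusted p = 1.8e-06), and *Cbr2*, a carbonyl reductase gene, by 0.95 (adjusted p = 0.00209) and 2.05 (adjusted p = 3.37e-08). *Mrc1*, encoding the mannose receptor CD206, went the other way, by -0.64 (adjusted p = 0.0113) and -0.53 (adjusted p = 0.0226). *F13a1*, the coagulation factor XIII subunit gene, stood at 0.36 (adjusted p = 0.241) and 0.71 (adjusted p = 0.00499), and the haemoglobin scavenger gene *Cd163* at -0.67 (adjusted p = 0.132) and -0.37 (adjusted p = 0.404). None of the 26 passed with IC in any subset, and 4, 7 and 5 had an unadjusted p under 0.05 in LYVE1+CX3CR1+, MHCII+CD11c- and MHCII+CD11c+ macrophages, with 8.71%, 14.6% and 9.48% of all genes. Without replicate 2 of the MHCII+CD11c- macrophages with IC, 1 of the 26 was higher in that subset, *Sparc*, which encodes a matrix-binding glycoprotein (1.44, adjusted p = 0.013).

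Several members are also genes of microglia, the resident macrophages of the brain, so 13 other microglial genes were examined, of which 11 passed the filter. In untreated LYVE1+CX3CR1+ macrophages 7 were higher and 3 lower than in MHCII+CD11c- macrophages, and 8 higher and 2 lower than in MHCII+CD11c+ macrophages. Over all genes these shares were 4.32% and 7.12%, then 9.48% and 12.4%. *Olfml3*, a secreted protein gene, was higher by 2.26 (adjusted p = 5.99e-07) and 4.17 (adjusted p = 1.82e-11). The complement gene *C1qa* was higher by 0.62 (adjusted p = 0.00385) and 1.50 (adjusted p = 1.09e-08). *Fcrls* went the other way, by -3.01 (adjusted p = 3.16e-09) and -3.91 (adjusted p = 1.4e-11), and was the only one of the 11 that passed with IC, lower in MHCII+CD11c- macrophages (-1.56, adjusted p = 0.00125).

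The transcripts most like each member over the 18 libraries were found by Pearson's r of log2 CPM. These values are descriptions, since the libraries share the 6 groups and any gene with a step between subsets correlates with another. The transcripts most like *Vsig4* included *Itgb5* (0.985) and *Olfml3* (0.983), and *Trem2* was closest to *Vsig4* (0.973), *Itgb5* (0.966) and *Olfml3* (0.962). *Cx3cr1* was closest to *C1qc* (0.981), *Olfml3* (0.980) and *Emp1* (0.979). *Lyve1*, which encodes the sorted receptor, was not closest to these but to *Tgfbi* (0.962), *Mtus1* (0.961) and *Agpat3* (0.937). *Gpr34* was closest to *Arhgap22* (0.970), *Itga9* (0.957) and *Tgfbr1* (0.952), *Timd4* to *Rab14* (0.941), *Laptm4a* (0.940) and *Elmo1* (0.928), and *Folr2* to *Serpinb6a* (0.957), *P2ry6* (0.955) and *Tcn2* (0.948). *Aqp1* was closest to *Alox5* (0.948), *Sh3bp5* (0.936) and *Emp1* (0.933), *Csf1r* to *Eng* (0.953), *Tns1* (0.953) and *Slc43a2* (0.945), and *Adgre1* to *St6gal1* (0.943), *Glmp* (0.937) and *Gna15* (0.932). Among the members themselves r was highest for *Vsig4* and *Cx3cr1* (0.978) and lowest for *Csf1r* and *Trem2* (0.561).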

How the data were processed

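Bulk RNA-seq of 18 libraries (stranded total RNA kit, paired-end) was used. Per the labels and the study's methods, the authors trimmed reads with Trim Galore, checked them with FastQC, aligned them to mm10 with HISAT2 and counted them with featureCounts. They deposited raw counts for 24421 gene symbols. Versions, annotation, strand setting and the handling of multiply matching reads are not given in the sources used here. Columns of a combined table held the same values (0 differed) and were not used.

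From these counts edgeR 4.0.16 in R 4.3.3 computed TMM factors and CPM. The function filterByExpr (minimum count 10, total 15) kept 10550 genes, and the quasi-likelihood test was fitted to all 18 libraries in 6 groups. SE is the log2 fold change divided by the square root of F, and intervals are normal approximations. The test was checked on simulated counts. Nothing in the labels says that libraries of a group share no animals or preparation day, so p-values measure the spread between these pools.

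The 10 members and the gene lists (ligands and adaptors, resident programme, microglial, general macrophage, class II and interstitial, dissociation, and markers of other cells) were chosen with earlier results of these data known. Named genes are the members, the 6 list genes of highest mean level, list genes that passed with IC in an MHCII+ subset, and the 3 genes (mean log2 CPM of at least 3) most correlated with each member. Results of some genes that this rule names are not reported here. H2-Eb1 and H2-DMb1 were counted without values, and C1qb, *C1qc* and general macrophage genes outside those named were also only counted. *Csf1*, *Il34*, *C3*, *Itgam* and *Sparc* were named after their values were seen.

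Replicates were compared by chi-square per gene over pairs (3.42 to 7.8), and no pair agreed within sampling noise. Same-numbered subsets of a treatment may come from the same dissected pool, which the labels do not state. The deviations of such pairs from the group means had r of 0.0148 to 0.273 (median 0.0798, 8 of 18 pairs over 0.1), and same-numbered pairs across treatments had r of -0.0537 to 0.0899 (0 of 27 over 0.1). Alternatives were other scalings, DESeq2 1.42.0, other filters, a fit to only the libraries compared, 1 surrogate variable (sva 3.50.0), blocks and leaving out each library.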

Additional observations from a re-analysis of the deposited data

How the results depend on the processing

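No member changed direction with a call under any alternative. Counts of members called that moved by over 1.5 times, or from 0, were these. With IC in MHCII+CD11c- macrophages 0 became 2 with library totals, 2 with DESeq2 and 2 when every library had to reach 10 counts. These were *Vsig4* and *Trem2*, both higher. It became 4 without a filter and 4 with 1 surrogate variable. In both, *Lyve1*, *Vsig4* and *Trem2* were higher and *Csf1r* lower (log2 fold change -0.57 and -0.45). The count also moved without the 2 shallow libraries, an alternative chosen after seeing the data. That fit leaves 1 library in the group, taken to vary like the others. Shares of all genes called under the alternatives are not reported here. The difference in IC response between MHCII+CD11c+ and LYVE1+CX3CR1+ macrophages became 1 with DESeq2, 1 with no filter and 1 with only the libraries compared. Of the comparisons with IC, MHCII+CD11c+ against MHCII+CD11c- went from 4 to 7 with 1 surrogate variable and to 7 without the shallow libraries, and LYVE1+CX3CR1+ against MHCII+CD11c- from 9 to 5 with only the libraries compared and to 3 without the shallow libraries. With IC in LYVE1+CX3CR1+ macrophages 0 became 1 with only the libraries compared. With the replicate number as a replicate block, the IC count in MHCII+CD11c- macrophages became 1 (*Vsig4*, adjusted p = 0.0417). With same-numbered libraries of a treatment taken as 1 pool of mice and used as a replicate block, the counts of the 6 comparisons between subsets stayed at 8, 10, 6, 9, 10 and 4 and those of the 3 differences of responses at 0, and IC against untreated could not be fitted, since such pools lie within treatments. The cause of these shifts was not tested, except that fewer libraries entered the fits that left some out.

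Leaving out each library in turn gave, for LYVE1+CX3CR1+ against MHCII+CD11c-, 8 to 8 untreated and 6 to 8 with IC. It gave 9 to 10 and 10 to 10 for LYVE1+CX3CR1+ against MHCII+CD11c+, and 5 to 7 and 4 to 7 between the MHCII+ subsets. For IC against untreated it gave 0 to 0 in LYVE1+CX3CR1+, 0 to 2 in MHCII+CD11c- and 0 to 3 in MHCII+CD11c+ macrophages, and 0 to 0 for each difference of responses. Gene lists and percentages without replicate 2 of the MHCII+CD11c- macrophages with IC were added after seeing the data.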

Other observations

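*Sparc*, which encodes a matrix-binding glycoprotein and was chosen here after its values were seen, followed the members without being one. It averaged 895, 225 and 43.6 CPM in untreated LYVE1+CX3CR1+, MHCII+CD11c- and MHCII+CD11c+ macrophages and 1055, 511 and 101 CPM with IC. The log2 fold change with IC was 0.24 (adjusted p = 0.913), 1.22 (adjusted p = 0.0555) and 1.26 (adjusted p = 0.101) in edgeR's quasi-likelihood test, so none passed. Without replicate 2 of the MHCII+CD11c- macrophages with IC it was 1.44 in that subset (adjusted p = 0.013).

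Markers of several other cell types were present in the sorted libraries. Of untreated libraries, B cell genes summed to 204 to 302 CPM in MHCII+CD11c-, 62.4 to 94.5 in MHCII+CD11c+ and 0 to 1.62 in LYVE1+CX3CR1+ libraries. Dendritic cell genes summed to 679 to 847 CPM in untreated MHCII+CD11c+ libraries and 18.2 to 28.8 in LYVE1+CX3CR1+ libraries. Schwann cell genes were highest in LYVE1+CX3CR1+ libraries, at 556 to 739 CPM untreated and 487 to 527 CPM with IC. Mast cell genes summed to 101 to 486 CPM in MHCII+CD11c- libraries with IC and 6.11 to 206 CPM untreated. A single untreated LYVE1+CX3CR1+ library held 697 CPM of fibroblast genes, against at most 219 CPM in the other 17. T and NK cell genes reached 109 CPM and muscle genes 132 CPM in any library. The T cell genes *Cd3e* and *Cd3g* had no counts in any group. In untreated MHCII+CD11c+ libraries, where the T and NK sum was highest, 2 of 7 such genes had counts.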
